A study of Mus musculus with 13 samples.

Results

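The resting translatome of noradrenergic neurons was read from 5 of the 13 sequencing libraries of this experiment, namely the 3 TRAP libraries (4, 6 and 12) and the 2 input libraries (5 and 12) of saline-treated mice. TRAP, translating ribosome affinity purification, pulls tagged ribosomes out of a tissue homogenate and sequences the mRNA they carry. The mice were hemizygous Slc6a2-eGFP/Rpl10a animals on a C57BL/6 background, in which the promoter of Slc6a2, the norepinephrine transporter gene, drives a green fluorescent version of ribosomal protein L10a. Every library of the series carries this transgene, the controls included. Each replicate joined the hindbrains of 2 same-sex mice aged 6 to 8 months, from which the cerebellum had been discarded. The saline mice received vehicle injections on days 1 and 7 and were sampled on day 14. The TRAP libraries hold RNA bound to tagged ribosomes, and the input libraries hold RNA of the whole hindbrain homogenate from the same procedure, so that a gene with a higher share of the TRAP reads is called enriched and a gene with a lower share depleted. The TRAP and input libraries numbered 12 share their number and were taken to come from the same pool of mice. The other 8 libraries (6 TRAP and 2 input) came from mice of the same genotype given the noradrenergic neurotoxin DSP-4. They enter the statistical fit, where they share the estimate of spread, and a comparison at the end. The promoter marks every cell in which it is active in the dissected piece, not the locus coeruleus alone, and the study kept only saline samples in which Slc6a2 was enriched over 10-fold, so the enrichment of that gene is not independent of the choice of libraries.

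Noradrenergic neurons of the hindbrain, most of them in the locus coeruleus, make norepinephrine from tyrosine through tyrosine hydroxylase, aromatic amino acid decarboxylase and dopamine β-hydroxylase, load it into vesicles through the vesicular monoamine transporter and take it back up through the norepinephrine transporter. They are small in number, send long branched axons to most of the brain, fire in slow spontaneous rhythm, and are known for release of galanin beside norepinephrine and for inhibition by α2-adrenergic and opioid receptors. A transcript that is used mainly by these cells is rare in a whole hindbrain and common on their ribosomes.

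The deposited counts summed to 19156476, 21679450 and 29199550 reads in TRAP and to 28208463 and 21725669 reads in input, over 12009 genes. Of these genes 2337 (19.5%) were higher in TRAP and 1880 (15.7%) were lower, 35.1% in either direction, by edgeR's quasi-likelihood test at a Benjamini-Hochberg false discovery rate (FDR) under 0.1, which is the test behind every FDR here. The median log2 fold change over all genes was −0.016. Among the genes that rose 1078 were at least 2-fold and 54 at least 4-fold higher, and among those that fell 773 were at least 2-fold and 65 at least 4-fold lower. All 3 TRAP libraries lay above both input libraries for 3560 genes (29.6%) and below both for 3622 (30.2%). When the pool of mice entered as a replicate block, an arrangement in which the saline contrast rests on pair 12 alone, 817 genes (6.8%) rose and 605 (5.04%) fell, and all but 1 of the 4217 genes called without the block kept their direction. Without input 5 the counts were 1440 and 991, and without input 12 they were 1215 and 885. Leaving out TRAP 12 gave 1730 and 1237. The FDRs of the block fit take their spread from the DSP-4 pairs and hold none between saline pools. Every list count below is to be read beside the shares of all genes, 19.5% higher and 15.7% lower, and a list near those shares is no result about its members. For lists with a count of at least 3 that 1 of the following fits moved by over 1.5 times, the higher and lower counts are also given, in parentheses, with the replicate block, with a correction for the GC content of the transcript, and without each input library. Values below are reads scaled to a normalized library total of 1000000 (CPM), in the order TRAP 4, 6 and 12 and then input 5 and 12, and log2 fold changes are those of TRAP over input with their standard errors. The libraries also differed in ways that no label names. The Y-linked genes Ddx3y, Eif2s3y, Uty and Kdm5d had no read in TRAP 4 or in input 5 and were counted in TRAP 6, TRAP 12 and input 12. The study used male and female mice and pooled them by sex. By these reads TRAP 4 and input 5 were female pools and the other saline libraries male pools. Sex did not enter the fit. In bulk RNA of this kind, a transcript carried by fewer cells and a transcript at a lower level per cell cannot be told apart. Nor does a read share tell ribosome-bound mRNA of the tagged cells from untagged RNA that came down with it.

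The genes that define the noradrenergic phenotype stood at the top of the enriched genes, and Slc6a2, Dbh, Gal and Phox2a were among the 15 largest rises. Slc6a2, the norepinephrine transporter, had 126, 118 and 128 CPM in TRAP and 4.19 and 5.06 CPM in input (log2 fold change 4.75 ± 0.45, FDR 4.77e-05). Dbh, dopamine β-hydroxylase, which converts dopamine to norepinephrine, had 144, 127 and 136 CPM in TRAP and 9.98 and 10.7 CPM in input (log2 fold change 3.71 ± 0.29, FDR 1.25e-05). The 3 TRAP values of each gene lay within a narrow band, and every one of them was more than 10 times as high as either input value. Gal, which encodes the neuropeptide galanin, had 102, 96 and 110 CPM in TRAP and 12.4 and 15.6 CPM in input (log2 fold change 2.88 ± 0.25, FDR 2.62e-05). Slc18a2, the vesicular monoamine transporter, had 185, 190 and 193 CPM in TRAP and 36.6 and 34.2 CPM in input (log2 fold change 2.42 ± 0.27, FDR 8.61e-05), the highest CPM in TRAP of the 5 marker genes. Phox2a, the homeodomain factor that drives noradrenergic differentiation, was rarer, with 11, 14.2 and 12.1 CPM in TRAP and 1.37 and 2.08 CPM in input (log2 fold change 2.85 ± 0.58, FDR 0.00261). For all 5 the TRAP and input libraries were widely apart, and each call held in every fit that left out a library and with a correction for GC content. Each also passed with the replicate block, where the saline contrast rests on pair 12 alone and no spread between saline pools is measured. With the block and the GC correction together, Phox2a no longer passed (FDR 0.136) and the other 4 did. On a scale corrected for transcript length, Gal reached 153 CPM per kilobase in TRAP, Dbh 53.2, Slc18a2 50, Slc6a2 20.1 and Phox2a 7.74, so the galanin transcript was the most abundant of the 5 and Phox2a the least.

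Of the whole set of genes for norepinephrine synthesis, storage, reuptake and breakdown, 10 of 17 measured members rose, 1 fell and 6 did not pass the test (median log2 fold change 1.01, 6 and 1 with the block, 10 and 1 with the GC correction, 9 and 0 without input 5, 8 and 1 without input 12). Th, tyrosine hydroxylase, had 152, 99.6 and 170 CPM in TRAP and 51.6 and 48.5 CPM in input (log2 fold change 1.49 ± 0.22, FDR 0.000371). Its fold change was smaller than that of Dbh, and its input level was higher. Ddc, the decarboxylase that serotonergic neurons use as well, had 189, 138 and 174 CPM in TRAP and 92.9 and 72.8 CPM in input (log2 fold change 1.01 ± 0.20, FDR 0.00188). Gch1, GTP cyclohydrolase, which makes the cofactor of tyrosine hydroxylase, had 40.8, 27.4 and 28.9 CPM in TRAP and 13.6 and 14.1 CPM in input (log2 fold change 1.23 ± 0.27, FDR 0.00361). Slc10a4, a vesicular protein of monoaminergic and cholinergic terminals, had 82.3, 74.3 and 79.1 CPM in TRAP and 27.5 and 22.8 CPM in input (log2 fold change 1.64 ± 0.19, FDR 8.73e-05). Maoa, monoamine oxidase A, rose with 146, 100 and 118 CPM in TRAP and 66.4 and 53.7 CPM in input (log2 fold change 1.02 ± 0.25, FDR 0.00828). Maob, monoamine oxidase B, did not pass, at a log2 fold change of 0.48. Adding the block took Gch1 (0.241) and Maoa (0.113) past the FDR threshold. Leaving out a library lost the call without input 12 for Maoa (0.107) (FDR in parentheses).

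**Figure D1:**
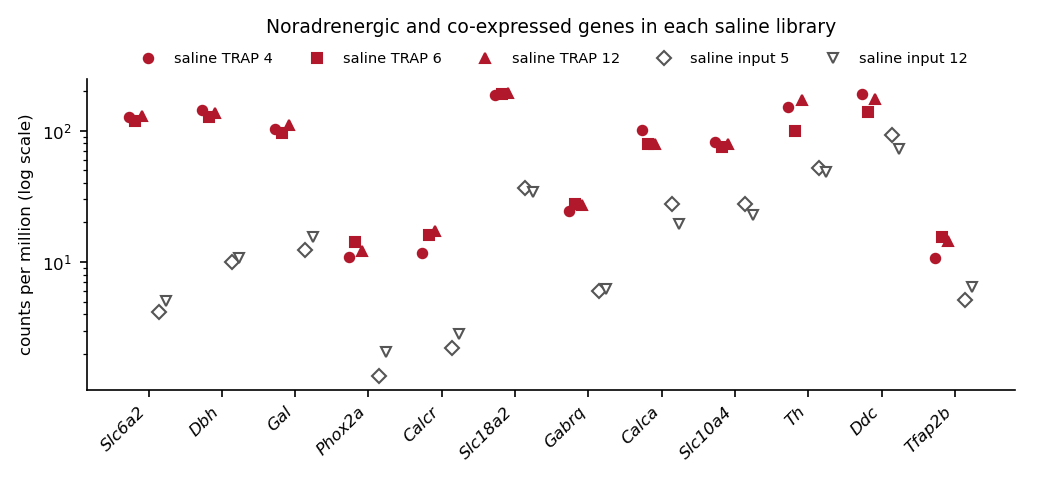
CPM on a log scale in each saline library, for genes of the noradrenergic phenotype and genes named with them; filled red symbols are the TRAP libraries and open grey symbols the input libraries, with TRAP to the left for each gene. The TRAP values of Slc6a2 sit between 118 and 128 CPM and its input values at 4.19 and 5.06 CPM.

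Of 8 transcription factors known from noradrenergic development, 3 of 8 measured members rose, 0 fell and 5 did not pass the test (median log2 fold change 0.62). Tfap2b, an AP-2 family factor expressed in noradrenergic progenitors, had 10.8, 15.6 and 14.5 CPM in TRAP and 5.11 and 6.47 CPM in input (log2 fold change 1.24 ± 0.31, FDR 0.00803). Every TRAP library was higher than either input library, and the fold was smaller than for Phox2a. Gata2 and Gata3 had log2 fold changes of 0.77 and 0.47 and did not pass. With the block, the FDR rose past the threshold for Tfap2b (0.281).

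Receptors were described by the signal they bind. For adrenergic, serotonergic, histamine, dopamine and muscarinic receptors, 5 of 18 measured members rose, 2 fell and 11 did not pass the test (median log2 fold change 0.024, 0 and 0 with the block, 3 and 1 with the GC correction, 0 and 2 without input 5, 1 and 1 without input 12), against 19.5% and 15.7% of all genes. Adra2a, the α2A-adrenergic receptor and the best known autoreceptor of these neurons, had 54.2, 52.8 and 60.9 CPM in TRAP and 29.5 and 30.3 CPM in input (log2 fold change 0.90 ± 0.29, FDR 0.0338). Adra1a, the α1A-adrenergic receptor, was lower in level but more enriched, with 11.2, 13.7 and 14.9 CPM in TRAP and 4.84 and 6.52 CPM in input (log2 fold change 1.23 ± 0.33, FDR 0.012). Htr2c, a serotonin receptor that couples to Gq, had 124, 105 and 123 CPM in TRAP and 69 and 69.8 CPM in input (log2 fold change 0.76 ± 0.22, FDR 0.0201). The serotonin receptor gene Htr7, which couples to Gs, went the other way, with 16.8, 18.4 and 17.7 CPM in TRAP and 40.9 and 34.1 CPM in input (log2 fold change −1.09 ± 0.21, FDR 0.00166), and its call held in every fit that left out a library. Adra2c, the α2C-adrenergic receptor, was the other member that fell, opposite to Adra2a, and was not called with the replicate block. Adrb1 and Adra1b had log2 fold changes of −0.60 and −0.64 and did not pass. The calls of Adra2a (0.195), Adra1a (0.272), Htr2c (0.291) and Htr7 (0.287) were lost with the replicate block (FDR in parentheses). The GC correction took Htr2c (0.172) past the FDR threshold. The FDR also passed 0.1 without input 12 for Adra2a (0.152) and Htr2c (0.114), and without input 5 for Adra2a (0.162), Adra1a (0.127) and Htr2c (0.113).

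Among receptors for neuropeptides and hormones, 8 of 30 measured members rose, 2 fell and 20 did not pass the test (median log2 fold change 0.34, 3 and 1 with the block, 9 and 1 with the GC correction, 4 and 1 without input 5, 4 and 1 without input 12). These shares were 26.7% and 6.67%, against 19.5% and 15.7% of all genes. Calcr, the calcitonin receptor, had the largest rise among the receptor lists apart from Gabra6, with 11.7, 16 and 17.1 CPM in TRAP and 2.21 and 2.83 CPM in input (log2 fold change 2.56 ± 0.61, FDR 0.0064). Insr, the insulin receptor, had 34.8, 38.3 and 31 CPM in TRAP and 15.2 and 12 CPM in input (log2 fold change 1.35 ± 0.21, FDR 0.000443). Trhr, the receptor for thyrotropin-releasing hormone, had 6.11, 9.1 and 5.83 CPM in TRAP and 2.55 and 2.27 CPM in input (log2 fold change 1.54 ± 0.39, FDR 0.0098). Hcrtr1, the orexin receptor through which hypothalamic orexin neurons excite the locus coeruleus, had 16.3, 18.1 and 18.6 CPM in TRAP and 9.6 and 8.55 CPM in input (log2 fold change 0.96 ± 0.27, FDR 0.0156), while its paralogue Hcrtr2 did not pass, at a log2 fold change of 0.79. Ntsr2, a neurotensin receptor that is mostly astrocytic in brain, fell, with 105, 83.8 and 51.8 CPM in TRAP and 181 and 163 CPM in input (log2 fold change −1.11 ± 0.25, FDR 0.00512). The receptor genes Oprk1, Oprl1 and Npy1r had log2 fold changes of 0.68, 0.37 and 0.029 and did not pass. When the pools of mice entered as a block, Trhr (0.308) and Hcrtr1 (0.274) missed the threshold (FDR in parentheses). Leaving out a library lost the call without input 12 for Hcrtr1 (0.13) (FDR in parentheses).

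Of metabotropic glutamate and GABA-B receptors, 4 of 9 measured members rose, 1 fell and 4 did not pass the test (median log2 fold change 0.25, 2 and 1 with the block, 3 and 1 with the GC correction, 4 and 1 without input 5, 3 and 0 without input 12). Grm5, a group I receptor, had 53.3, 41.4 and 58.9 CPM in TRAP and 22.3 and 17.7 CPM in input (log2 fold change 1.35 ± 0.29, FDR 0.00381). Grm7, a presynaptic group III receptor, had 46.7, 42.6 and 50.9 CPM in TRAP and 24.3 and 23.8 CPM in input (log2 fold change 0.96 ± 0.21, FDR 0.00418). Gabbr2, the GABA-B subunit that couples to G proteins, fell, with 7.74, 2.33 and 9.23 CPM in TRAP and 11.9 and 28.9 CPM in input (log2 fold change −1.66 ± 0.55, FDR 0.0353), but its input values differed more than 2-fold from each other and the log2 fold change was −0.89 without input 12. Its partner Gabbr1 did not pass, at a log2 fold change of −0.38. Of the purine, lipid and cannabinoid receptors, 2 of 12 measured members rose, 0 fell and 10 did not pass the test (median log2 fold change 0.16). Cnr1, the CB1 cannabinoid receptor, had 77.3, 104 and 71.4 CPM in TRAP and 31.8 and 33.8 CPM in input (log2 fold change 1.36 ± 0.25, FDR 0.0012). P2ry1, a purinergic receptor for ADP, had 16.1, 20.2 and 17.1 CPM in TRAP and 8.23 and 8.88 CPM in input (log2 fold change 1.06 ± 0.25, FDR 0.00584). Adding the block took Grm7 (0.159), Cnr1 (0.147) and P2ry1 (0.359) past the FDR threshold. A call was lost without TRAP 6 for Gabbr2 (0.1), and without input 12 for Gabbr2 (0.418), with the FDR in parentheses.

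Of receptors for trophic factors and cytokines, 11 of 33 measured members rose, 2 fell and 20 did not pass the test (median log2 fold change 0.40, 3 and 1 with the block, 8 and 2 with the GC correction, 6 and 2 without input 5, 5 and 1 without input 12). Bmpr2, the type II receptor for bone morphogenetic proteins, had 145, 149 and 163 CPM in TRAP and 48.7 and 46.7 CPM in input (log2 fold change 1.67 ± 0.20, FDR 0.000104). Lifr, the receptor for leukemia inhibitory factor, had 53.6, 72.1 and 80.4 CPM in TRAP and 21.5 and 17.7 CPM in input (log2 fold change 1.81 ± 0.25, FDR 0.00023). Ntrk2, the receptor for brain-derived neurotrophic factor, was the most abundant of these by CPM, with 211, 252 and 251 CPM in TRAP and 131 and 137 CPM in input (log2 fold change 0.82 ± 0.18, FDR 0.00363). Gfra4, the GDNF-family receptor for persephin, fell, with 43, 53 and 46 CPM in TRAP and 83.4 and 105 CPM in input (log2 fold change −0.99 ± 0.17, FDR 0.00084). Ret, the signalling partner of the GDNF-family receptors, did not pass, at a log2 fold change of 0.41. Of orphan and adhesion receptors, 13 of 61 measured members rose, 12 fell and 36 did not pass the test (median log2 fold change 0.12, 4 and 4 with the block, 13 and 6 with the GC correction, 9 and 8 without input 5, 7 and 6 without input 12). The shares of orphan and adhesion receptors, 21.3% higher and 19.7% lower, were near those of all genes, 19.5% and 15.7%. Adgre1, best known as the macrophage antigen F4/80, had 18.5, 13.1 and 15.9 CPM in TRAP and 3.47 and 2.55 CPM in input (log2 fold change 2.39 ± 0.36, FDR 0.000391). Of 17 microglial markers, a list that leaves out Adgre1, 0 rose, and the cell source of Adgre1 was not tested. Fzd3, a Wnt receptor needed for axon tracts, had 39.5, 46 and 52.5 CPM in TRAP and 17.1 and 16.9 CPM in input (log2 fold change 1.44 ± 0.22, FDR 0.00047). Gpr101, an orphan receptor of hypothalamus and brainstem, had 13.2, 15.6 and 13.7 CPM in TRAP and 3.96 and 5.48 CPM in input (log2 fold change 1.59 ± 0.34, FDR 0.00361). Gpr137 fell, with 46.8, 39.2 and 40.1 CPM in TRAP and 94.5 and 117 CPM in input (log2 fold change −1.33 ± 0.22, FDR 0.000734). In the fit with the replicate block Ntrk2 (0.254), Gfra4 (0.107) and Gpr101 (0.198) no longer passed, with the FDR in parentheses.

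Of the subunits of GABA-A and glycine receptors, which carry fast inhibition, 12 of 16 measured members rose, 0 fell and 4 did not pass the test (median log2 fold change 0.997, 6 and 0 with the block, 6 and 1 with the GC correction, 8 and 0 without input 5, 6 and 0 without input 12). Gabrq, the θ subunit, which is found in few brain nuclei and is high in the locus coeruleus, had 24.5, 27.6 and 27 CPM in TRAP and 5.98 and 6.28 CPM in input (log2 fold change 2.10 ± 0.23, FDR 8.3e-05). Gabrb1 had 46.7, 64.4 and 89.8 CPM in TRAP and 18.9 and 19.5 CPM in input (log2 fold change 1.80 ± 0.32, FDR 0.00106). Gabrb2 had 118, 133 and 148 CPM in TRAP and 52.5 and 49.1 CPM in input (log2 fold change 1.39 ± 0.21, FDR 0.000444). Gabrg1 had 47, 45.5 and 41 CPM in TRAP and 19.9 and 16.1 CPM in input (log2 fold change 1.31 ± 0.20, FDR 0.000388). The subunits Gabra3, Gabra4, Gabra5 and Gabrd had log2 fold changes of −0.051, 0.28, −0.29 and 0.71 and did not pass. Gabra6, a subunit of cerebellar granule cells, was counted among the 12 that rose only because of a single library, as described with the cerebellar markers.

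Of glutamate-gated channels and the proteins that accompany them, 6 of 21 measured members rose, 4 fell and 11 did not pass the test (median log2 fold change 0.16, 2 and 2 with the block, 5 and 3 with the GC correction, 4 and 3 without input 5, 3 and 3 without input 12). Gria2, the AMPA receptor subunit that blocks calcium entry, had 76.1, 77.1 and 75.2 CPM in TRAP and 40.6 and 30.8 CPM in input (log2 fold change 1.09 ± 0.20, FDR 0.0014). Gria3 had 63.7, 89.7 and 80.8 CPM in TRAP and 31.1 and 28.7 CPM in input (log2 fold change 1.39 ± 0.29, FDR 0.00272). Gria1 did not pass, at a log2 fold change of 0.0037, and neither did Grin1, the obligate NMDA receptor subunit, at 0.55. All 4 members that fell were auxiliary proteins of AMPA receptors, and Cacng5, another such protein, rose, with 25.4, 20.7 and 27.8 CPM in TRAP and 12.3 and 14.6 CPM in input (log2 fold change 0.87 ± 0.22, FDR 0.00802). Cnih2, a cornichon, had 58.3, 62.1 and 54.7 CPM in TRAP and 155 and 197 CPM in input (log2 fold change −1.59 ± 0.17, FDR 8.3e-05). Cacng7, a transmembrane AMPA receptor regulatory protein, had 12.1, 12.9 and 26.5 CPM in TRAP and 38.5 and 99.9 CPM in input (log2 fold change −2.0 ± 0.40, FDR 0.00216), a difference of −1.16 without input 12. Cnih3 had 17.5, 16.7 and 16.8 CPM in TRAP and 37.4 and 34.1 CPM in input (log2 fold change −1.07 ± 0.27, FDR 0.00835). In these 3 genes no TRAP value reached an input value. Of the nicotinic and 5-HT3 subunits, 2 of 5 measured members rose, 0 fell and 3 did not pass the test (median log2 fold change 0.85). Chrna6, the α6 nicotinic subunit typical of catecholaminergic neurons, had 30.4, 14.7 and 30.4 CPM in TRAP and 13.1 and 9.92 CPM in input (log2 fold change 1.13 ± 0.29, FDR 0.00974), and Chrnb3, its usual partner, had 5.9, 6.13 and 8.59 CPM in TRAP and 2.36 and 2.74 CPM in input (log2 fold change 1.43 ± 0.40, FDR 0.0153). The calls of Cacng5 (0.314), Cnih3 (0.246) and Chrnb3 (0.216) were lost with the replicate block (FDR in parentheses). Leaving out a library lost the call without input 12 for Chrna6 (0.123), and without input 5 for Chrnb3 (0.123) (FDR in parentheses).

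For sodium, sodium leak and HCN channels, 8 of 16 measured members rose, 2 fell and 6 did not pass the test (median log2 fold change 0.73, 5 and 2 with the block, 8 and 2 with the GC correction, 6 and 2 without input 5, 8 and 2 without input 12). Nalcn, the sodium leak channel that depolarizes spontaneously firing neurons, had 108, 100 and 127 CPM in TRAP and 49.3 and 44.5 CPM in input (log2 fold change 1.25 ± 0.20, FDR 0.000521). Unc80, a subunit of the same channel complex, had 153, 191 and 188 CPM in TRAP and 61.7 and 48.5 CPM in input (log2 fold change 1.69 ± 0.23, FDR 0.000208), and Unc79, the remaining subunit of that group, did not pass, at a log2 fold change of 0.63. Scn1a, the Nav1.1 sodium channel, had 168, 148 and 195 CPM in TRAP and 77.1 and 73.1 CPM in input (log2 fold change 1.18 ± 0.25, FDR 0.00341). Hcn2, a channel of the hyperpolarization-activated current, fell, with 86.3, 87 and 85.9 CPM in TRAP and 204 and 277 CPM in input (log2 fold change −1.48 ± 0.31, FDR 0.00319). Among calcium channels, 6 of 15 measured members rose, 1 fell and 8 did not pass the test (median log2 fold change 0.59, 2 and 0 with the block, 6 and 1 with the GC correction, 3 and 1 without input 5, 3 and 0 without input 12). Cacna1e, the R-type channel, had 36.1, 36.1 and 68 CPM in TRAP and 13.8 and 11.6 CPM in input (log2 fold change 1.88 ± 0.28, FDR 0.000391), with TRAP 12 above the other TRAP libraries. Cacna2d1, an α2δ subunit that brings channels to the membrane, had 57.4, 72.9 and 87.5 CPM in TRAP and 26.7 and 25.7 CPM in input (log2 fold change 1.47 ± 0.22, FDR 0.000367). Cacnb3, a β subunit, fell, with 37.2, 35.9 and 47.2 CPM in TRAP and 63.4 and 90.3 CPM in input (log2 fold change −0.94 ± 0.23, FDR 0.00746). Cacna1c and Cacna1d, the L-type channels that are known to pace locus coeruleus neurons, had log2 fold changes of 0.79 and −0.50 and did not pass. When the pools of mice entered as a block, Cacnb3 (0.23) missed the threshold (FDR in parentheses). The GC correction took Cacnb3 (0.25) past the FDR threshold. A call was lost without input 12 for Cacnb3 (0.14), with the FDR in parentheses.

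Of voltage-gated potassium channels, 14 of 36 measured members rose, 5 fell and 17 did not pass the test (median log2 fold change 0.42, 4 and 0 with the block, 14 and 3 with the GC correction, 7 and 2 without input 5, 7 and 2 without input 12). The A-type channels Kcnd2 and Kcnd3, which delay the return to threshold after a spike, had 70.2, 105 and 94.2 CPM in TRAP and 29.4 and 33.7 CPM in input (log2 fold change 1.51 ± 0.20, FDR 0.000208) and 68.5, 56.7 and 84.1 CPM in TRAP and 24.3 and 31.2 CPM in input (log2 fold change 1.33 ± 0.24, FDR 0.0012). Kcna2, a channel of axons, had 215, 297 and 488 CPM in TRAP and 92.1 and 81.5 CPM in input (log2 fold change 1.94 ± 0.46, FDR 0.00621), with the 3 TRAP libraries more than 2-fold apart. Kcna1, its axonal partner, had 211, 266 and 298 CPM in TRAP and 132 and 132 CPM in input (log2 fold change 0.97 ± 0.19, FDR 0.00187). Kcnq3, an M-current channel, did not pass, at a log2 fold change of 0.25. For inward rectifiers, 2-pore domain and calcium-activated channels, 5 of 21 measured members rose, 3 fell and 13 did not pass the test (median log2 fold change 0.033, 1 and 0 with the block, 3 and 0 with the GC correction, 2 and 3 without input 5, 2 and 1 without input 12), near the shares of all genes. Kcnj3, the GIRK1 subunit through which opioid and α2-adrenergic receptors hyperpolarize neurons, had 70.4, 70.3 and 78.3 CPM in TRAP and 35.6 and 32.3 CPM in input (log2 fold change 1.11 ± 0.22, FDR 0.00208). Kcnj9, the GIRK3 subunit, went the other way and was among the 3 members that fell. Kcnj10, Kir4.1, which is mainly glial, had 177, 170 and 210 CPM in TRAP and 91.2 and 99.1 CPM in input (log2 fold change 0.96 ± 0.19, FDR 0.0022). Kcnn1, a small-conductance calcium-activated channel, fell, with 14.6, 10.5 and 13.3 CPM in TRAP and 25 and 24.9 CPM in input (log2 fold change −0.96 ± 0.25, FDR 0.00958). Adding the block took Kcna1 (0.102), Kcnj10 (0.138) and Kcnn1 (0.342) past the FDR threshold. Corrected for GC content, Kcnn1 (0.108) missed the threshold.

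Of TRP, chloride, acid-sensing and calcium-store channels, 12 of 35 measured members rose, 6 fell and 17 did not pass the test (median log2 fold change 0.37, 6 and 2 with the block, 13 and 2 with the GC correction, 9 and 4 without input 5, 6 and 2 without input 12). Trpc5, a receptor-operated cation channel, had 22.3, 21 and 30.5 CPM in TRAP and 5.98 and 5.76 CPM in input (log2 fold change 2.07 ± 0.41, FDR 0.00215). Ryr2, a ryanodine receptor that releases stored calcium, had 41.7, 50 and 63.9 CPM in TRAP and 19.7 and 16.3 CPM in input (log2 fold change 1.52 ± 0.27, FDR 0.00112). Clcn3, an intracellular chloride/proton exchanger, had 163, 194 and 215 CPM in TRAP and 101 and 87.3 CPM in input (log2 fold change 1.02 ± 0.17, FDR 0.000858). Ano3, an anoctamin, had 22.3, 24 and 26.8 CPM in TRAP and 8.53 and 7.61 CPM in input (log2 fold change 1.59 ± 0.40, FDR 0.00823). Pkd1, which encodes polycystin-1, was among the most depleted genes of the whole table, with 3.21, 1.51 and 2.26 CPM in TRAP and 41.4 and 40.8 CPM in input (log2 fold change −4.15 ± 0.46, FDR 8.61e-05).

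**Figure D2:**
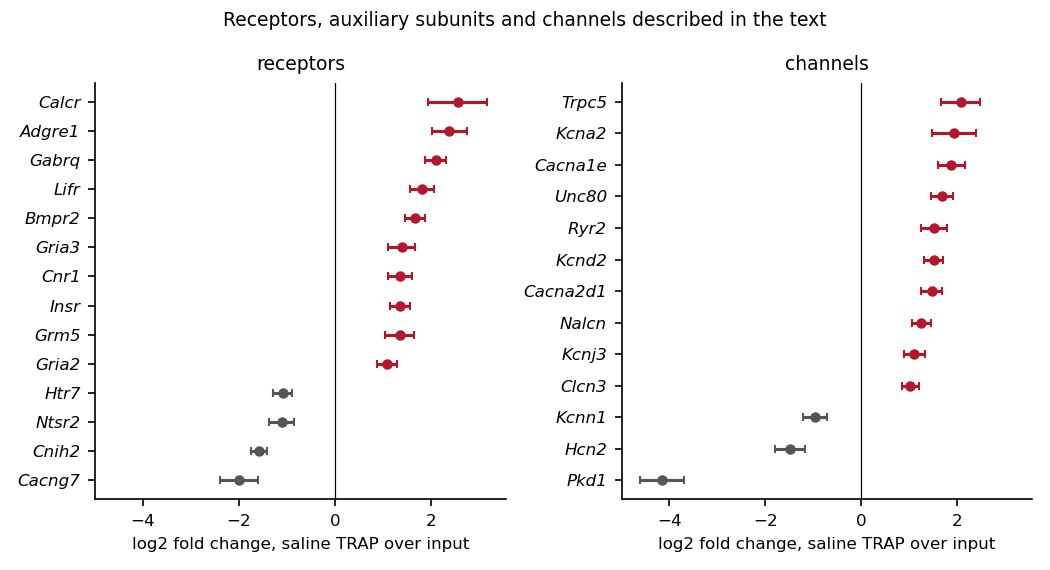
Log2 fold change of saline TRAP over saline input with its standard error for receptors and their auxiliary subunits (left) and channels (right); red marks genes that rose and grey genes that fell. Calcr lies at 2.56 and Trpc5 at 2.07, and Pkd1 lies far below the rest at −4.15.

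Most neuropeptide genes did not pass the test, and galanin was the exception in size. Here 4 of 27 measured members rose, 3 fell and 20 did not pass the test (median log2 fold change −0.13, 2 and 1 with the block, 5 and 1 with the GC correction, 3 and 1 without input 5, 3 and 1 without input 12), shares below those of all genes. Calca, which encodes calcitonin and calcitonin gene-related peptide, was second to Gal, with 101, 79.6 and 78.4 CPM in TRAP and 27.4 and 19.6 CPM in input (log2 fold change 1.87 ± 0.22, FDR 9.81e-05). Adcyap1, which encodes PACAP, had 72.1, 63.6 and 68.6 CPM in TRAP and 43.7 and 41.6 CPM in input (log2 fold change 0.68 ± 0.17, FDR 0.00782). Npy and Cartpt, peptides that noradrenergic neurons can also hold, had log2 fold changes of −0.59 and −0.52 and did not pass. Pomc, the precursor of β-endorphin, was called lower, with 15.6, 9.46 and 11.6 CPM in TRAP and 167 and 21.7 CPM in input (log2 fold change −2.95 ± 0.90, FDR 0.0251), on the strength of a single high input library, and without input 5 its log2 fold change was −0.84. The pituitary hormone genes Prl and Gh, looked up after the values of Pomc were seen, were highest in the same library, with 15.8, 2.97 and 2.33 CPM in TRAP and 111 and 0.425 CPM in input for Prl and 8.01, 9.42 and 2.22 CPM in TRAP and 78.8 and 5.72 CPM in input for Gh. The granins and peptide-processing proteins, which build dense-core vesicles, were counted together, and 8 of 19 measured members rose, 2 fell and 9 did not pass the test (median log2 fold change 0.37, 2 and 2 with the block, 8 and 2 with the GC correction, 6 and 2 without input 5, 5 and 1 without input 12). Scg2, secretogranin II, had 685, 672 and 791 CPM in TRAP and 411 and 355 CPM in input (log2 fold change 0.90 ± 0.21, FDR 0.00549). Chgb, chromogranin B, had 393, 416 and 414 CPM in TRAP and 233 and 204 CPM in input (log2 fold change 0.90 ± 0.18, FDR 0.00243). Scg3 had 299, 313 and 271 CPM in TRAP and 171 and 148 CPM in input (log2 fold change 0.88 ± 0.16, FDR 0.00135). Pcsk1n, an inhibitor of the prohormone convertase PCSK1, was the most abundant member in input by CPM and fell, with 1329, 1570 and 905 CPM in TRAP and 2795 and 3038 CPM in input (log2 fold change −1.20 ± 0.27, FDR 0.00413). Among trophic factors 1 of 22 measured members rose, 5 fell and 16 did not pass the test (median log2 fold change −0.02, 0 and 4 with the block, 1 and 5 with the GC correction, 0 and 4 without input 5, 0 and 3 without input 12). Vegfb, a vascular growth factor, had 113, 128 and 64.2 CPM in TRAP and 331 and 288 CPM in input (log2 fold change −1.60 ± 0.31, FDR 0.00182), and Gas6, a ligand of TAM receptors, had 94.5, 96.3 and 94.1 CPM in TRAP and 185 and 164 CPM in input (log2 fold change −0.88 ± 0.18, FDR 0.0024). The calls of Adcyap1 (0.374), Pomc (0.263), Scg2 (0.109), Chgb (0.167), Scg3 (0.25) and Gas6 (0.299) were lost with the replicate block (FDR in parentheses). Corrected for GC content, Adcyap1 (0.184) missed the threshold. A call was lost without input 5 for Pomc (0.614), with the FDR in parentheses.

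Of genes for synaptic vesicles and release, 18 of 52 measured members rose, 7 fell and 27 did not pass the test (median log2 fold change 0.23, 11 and 2 with the block, 18 and 4 with the GC correction, 13 and 6 without input 5, 10 and 3 without input 12). Syt1, the calcium sensor of fast release, had 611, 599 and 787 CPM in TRAP and 231 and 261 CPM in input (log2 fold change 1.44 ± 0.20, FDR 0.000208). Unc13c, a vesicle-priming protein, had 88.8, 119 and 96.3 CPM in TRAP and 29.3 and 21.5 CPM in input (log2 fold change 1.99 ± 0.24, FDR 0.000104), the largest rise of the list. Synj1, synaptojanin, which uncoats recycled vesicles, had 307, 337 and 426 CPM in TRAP and 133 and 133 CPM in input (log2 fold change 1.42 ± 0.20, FDR 0.000225). Sncb, β-synuclein, fell, with 503, 451 and 467 CPM in TRAP and 938 and 1296 CPM in input (log2 fold change −1.24 ± 0.23, FDR 0.00125). Vamp1, synaptobrevin 1, was below both input libraries in every TRAP library, with 1027, 816 and 922 CPM in TRAP and 1773 and 1801 CPM in input (log2 fold change −0.95 ± 0.19, FDR 0.00253). Of transporters and enzymes of amino acid transmitters, 8 of 13 measured members rose, 2 fell and 3 did not pass the test (median log2 fold change 0.61, 4 and 1 with the block, 8 and 1 with the GC correction, 5 and 1 without input 5, 5 and 1 without input 12). Slc17a6, the vesicular glutamate transporter VGLUT2, had 289, 290 and 326 CPM in TRAP and 133 and 135 CPM in input (log2 fold change 1.17 ± 0.18, FDR 0.000402). Gad1, the GABA-synthesizing enzyme, had 508, 560 and 806 CPM in TRAP and 259 and 269 CPM in input (log2 fold change 1.24 ± 0.24, FDR 0.00202), and Slc6a5, the neuronal glycine transporter of inhibitory neurons, had 84.3, 101 and 130 CPM in TRAP and 50.4 and 49.8 CPM in input (log2 fold change 1.07 ± 0.23, FDR 0.00378). Slc32a1, the vesicular GABA transporter, did not pass, at a log2 fold change of −0.0076, and was at 0.58 (FDR 0.0451) after correction for GC content. Slc17a7, VGLUT1, fell, with 22.1, 28.4 and 32.1 CPM in TRAP and 39.1 and 87.6 CPM in input (log2 fold change −1.20 ± 0.33, FDR 0.0153), or a log2 fold change of −0.50 without input 12. When the pools of mice entered as a block, Vamp1 (0.205) missed the threshold (FDR in parentheses). Among the fits that leave out a library, the FDR passed 0.1 without input 12 for Slc17a7 (0.401).

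For G protein subunits 3 of 25 measured members rose, 6 fell and 16 did not pass the test (median log2 fold change −0.14, 0 and 5 with the block, 4 and 7 with the GC correction, 1 and 4 without input 5, 3 and 2 without input 12). Gna12, the α12 subunit, was among the most depleted genes measured, with 5.22, 1.28 and 3.77 CPM in TRAP and 60.6 and 67.2 CPM in input (log2 fold change −4.22 ± 0.82, FDR 0.0019). Among the inhibitory α subunits Gnai3 had 47, 57.5 and 53.6 CPM in TRAP and 29.3 and 27.8 CPM in input (log2 fold change 0.89 ± 0.20, FDR 0.00473), whereas Gnai2 had 80.2, 75.4 and 85.9 CPM in TRAP and 152 and 218 CPM in input (log2 fold change −1.20 ± 0.29, FDR 0.00725) and Gnai1 had a log2 fold change of 0.12, which did not pass. For regulators of G protein signalling, 4 of 15 measured members rose, 2 fell and 9 did not pass the test (median log2 fold change −0.078, 1 and 1 with the block, 2 and 3 with the GC correction, 2 and 2 without input 5, 2 and 0 without input 12). Rgs17, which acts on Gi and Gz, had 172, 217 and 244 CPM in TRAP and 79.8 and 62.3 CPM in input (log2 fold change 1.57 ± 0.34, FDR 0.00366). Of adenylyl cyclases, guanylyl cyclases and phosphodiesterases, 10 of 29 measured members rose, 3 fell and 16 did not pass the test (median log2 fold change 0.28, 1 and 1 with the block, 8 and 2 with the GC correction, 5 and 1 without input 5, 6 and 1 without input 12). Pde4d, a cAMP phosphodiesterase, had 71.7, 77.5 and 91 CPM in TRAP and 38.2 and 48 CPM in input (log2 fold change 0.90 ± 0.18, FDR 0.00227), and Pde5a, a cGMP phosphodiesterase, had 12.9, 21.7 and 14.4 CPM in TRAP and 5.07 and 5.24 CPM in input (log2 fold change 1.66 ± 0.35, FDR 0.00338). Adding the block took Gnai3 (0.228), Pde4d (0.227) and Pde5a (0.137) past the FDR threshold. The FDR also passed 0.1 without input 12 for Gnai2 (0.113).

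Of nuclear receptors and their coregulators, 17 of 36 measured members rose, 4 fell and 15 did not pass the test (median log2 fold change 0.47, 6 and 4 with the block, 12 and 2 with the GC correction, 7 and 3 without input 5, 7 and 2 without input 12). Nr4a3, an orphan receptor of the immediate early kind, had 21.2, 19.4 and 27.6 CPM in TRAP and 3.28 and 6.19 CPM in input (log2 fold change 2.27 ± 0.47, FDR 0.00275). Ncoa2, a coactivator, had 60.8, 82.1 and 76.5 CPM in TRAP and 26.9 and 29.8 CPM in input (log2 fold change 1.37 ± 0.20, FDR 0.000326). Nr3c1, the glucocorticoid receptor, had 66.2, 71.2 and 77.2 CPM in TRAP and 34.3 and 33 CPM in input (log2 fold change 1.09 ± 0.16, FDR 0.000374). Thra, thyroid hormone receptor α, fell, with 214, 219 and 216 CPM in TRAP and 555 and 672 CPM in input (log2 fold change −1.5 ± 0.17, FDR 8.61e-05), and Esrra, estrogen-related receptor α, fell as well, with 66.1, 81.2 and 74.4 CPM in TRAP and 140 and 172 CPM in input (log2 fold change −1.08 ± 0.21, FDR 0.00191). Of homeodomain factors, 9 of 64 measured members rose, 14 fell and 41 did not pass the test (median log2 fold change −0.066, 6 and 3 with the block, 8 and 8 with the GC correction, 6 and 10 without input 5, 6 and 7 without input 12); the larger count was of lower genes without the block and of higher genes with it, and the counts were equal with the GC correction. Beside Phox2a, those that rose included Zfhx4, with 25, 23.8 and 35.7 CPM in TRAP and 10.4 and 7.61 CPM in input (log2 fold change 1.64 ± 0.37, FDR 0.00433). Cux1 fell, with 47.8, 49.9 and 45.9 CPM in TRAP and 109 and 106 CPM in input (log2 fold change −1.17 ± 0.18, FDR 0.000444). Of the Hox genes that pattern the hindbrain and spinal cord, Hoxb5 fell most clearly, with 36, 34.4 and 28.3 CPM in TRAP and 60.5 and 64.1 CPM in input (log2 fold change −0.92 ± 0.21, FDR 0.0046). In the fit with the replicate block Hoxb5 (0.12) no longer passed, with the FDR in parentheses.

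Of bHLH, GATA and Ebf factors, 8 of 54 measured members rose, 8 fell and 38 did not pass the test (median log2 fold change 0.044, 5 and 6 with the block, 9 and 5 with the GC correction, 6 and 4 without input 5, 5 and 4 without input 12). Hif1a and Epas1, the oxygen-regulated factors HIF-1α and HIF-2α, had 142, 148 and 163 CPM in TRAP and 59.2 and 50.4 CPM in input (log2 fold change 1.46 ± 0.28, FDR 0.0019) and 86, 104 and 120 CPM in TRAP and 27.4 and 44.3 CPM in input (log2 fold change 1.53 ± 0.28, FDR 0.00131). Max, the partner of Myc proteins, fell, with 43.8, 56.2 and 46.9 CPM in TRAP and 111 and 119 CPM in input (log2 fold change −1.23 ± 0.18, FDR 0.000391). Of Fox, Sox and Ets factors, 8 of 37 measured members rose, 5 fell and 24 did not pass the test (median log2 fold change 0.26, 4 and 0 with the block, 8 and 4 with the GC correction, 6 and 4 without input 5, 6 and 0 without input 12). Shares of 14.8% in each direction for bHLH, GATA and Ebf factors were near the 19.5% and 15.7% of all genes. So were the 21.6% higher and 13.5% lower of Fox, Sox and Ets factors. Foxp2 had 40.8, 47.7 and 67.1 CPM in TRAP and 13.3 and 13 CPM in input (log2 fold change 1.98 ± 0.38, FDR 0.00182), with TRAP 12 highest. For immediate early and CREB/ATF factors, 5 of 34 measured members rose, 7 fell and 22 did not pass the test (median log2 fold change −0.031, 3 and 2 with the block, 5 and 7 with the GC correction, 3 and 5 without input 5, 4 and 4 without input 12). Fos and Jun had log2 fold changes of 0.40 and 0.15 and did not pass, whereas Jund fell, with 141, 157 and 137 CPM in TRAP and 381 and 460 CPM in input (log2 fold change −1.54 ± 0.34, FDR 0.00433). Among Klf, Sp, Mef2 and NFI factors, 13 of 30 measured members rose, 1 fell and 16 did not pass the test (median log2 fold change 0.48, 2 and 0 with the block, 8 and 1 with the GC correction, 6 and 1 without input 5, 7 and 0 without input 12). Nfib had 53.9, 84.4 and 79.6 CPM in TRAP and 20 and 15.8 CPM in input (log2 fold change 2.02 ± 0.33, FDR 0.000625). Of chromatin regulators, 34 of 101 measured members rose, 8 fell and 59 did not pass the test (median log2 fold change 0.47, 21 and 3 with the block, 35 and 10 with the GC correction, 23 and 5 without input 5, 24 and 4 without input 12). Smarca5, an ISWI remodeller, had 83.5, 88.6 and 93 CPM in TRAP and 25 and 24.6 CPM in input (log2 fold change 1.83 ± 0.21, FDR 8.84e-05). Smarcd3, a neuronal subunit of the BAF remodeller, fell, with 21.9, 13.8 and 15.1 CPM in TRAP and 100 and 106 CPM in input (log2 fold change −2.61 ± 0.55, FDR 0.00307), as did Carm1, an arginine methyltransferase, with 2.16, 1.33 and 1.18 CPM in TRAP and 12.3 and 22 CPM in input (log2 fold change −3.47 ± 0.92, FDR 0.0119).

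The list with the largest share of risen members (82.4%) was that of condensin, cohesin and other SMC proteins, which hold and fold chromosomes and, in neurons, shape gene loops. The lists were chosen with earlier results of these data known. This rank, and that of the most depleted list below, therefore describes the chosen lists and is no test. Here 14 of 17 measured members rose, 1 fell and 2 did not pass the test (median log2 fold change 1.32), and with the replicate block 12 rose and 1 fell. Smc3, a core subunit of cohesin, had 50, 59.4 and 64.6 CPM in TRAP and 11 and 9.83 CPM in input (log2 fold change 2.48 ± 0.32, FDR 0.000141). Nipbl, the cohesin loader, had 22.2, 26.3 and 33.6 CPM in TRAP and 8.38 and 5.81 CPM in input (log2 fold change 1.95 ± 0.30, FDR 0.000424). Stag2, the cohesin subunit that binds the ring, had 60.8, 68.9 and 68.2 CPM in TRAP and 20.1 and 18.5 CPM in input (log2 fold change 1.77 ± 0.28, FDR 0.00049). Smc4, a condensin subunit and 1 of the 15 genes with the largest rise, had 6.85, 7.09 and 8.02 CPM in TRAP and 0.876 and 1.18 CPM in input (log2 fold change 2.83 ± 0.53, FDR 0.00154). Ncaph2, a condensin II subunit, was the member that fell, with 89.7, 95.1 and 78.2 CPM in TRAP and 171 and 181 CPM in input (log2 fold change −1.01 ± 0.16, FDR 0.000586). The list has a median transcript GC of 42.2% and a median transcript length of 5603 nt, against 49.7% and 3466 nt over all genes. With a correction for GC content 14 rose and 1 fell, at a lower median log2 fold change of 0.959, and length was not corrected for.

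For axon guidance molecules and receptors, 31 of 67 measured members rose, 2 fell and 34 did not pass the test (median log2 fold change 0.60, 19 and 0 with the block, 27 and 1 with the GC correction, 20 and 2 without input 5, 21 and 0 without input 12). The list has a median transcript length of 5673 nt, and its shares were 46.3% higher and 2.99% lower. In the longest quintile of all transcripts 47.4% of genes rose and 4.39% fell, so such shares were not particular to this list. Sema3e, a secreted semaphorin, had 29.7, 25.9 and 28.5 CPM in TRAP and 8.08 and 7.18 CPM in input (log2 fold change 1.88 ± 0.30, FDR 0.00059). Epha6, an ephrin receptor, had 23.1, 34.6 and 30.3 CPM in TRAP and 9.72 and 9.87 CPM in input (log2 fold change 1.58 ± 0.24, FDR 0.000449). Cntn1, contactin 1, had 387, 387 and 430 CPM in TRAP and 178 and 136 CPM in input (log2 fold change 1.35 ± 0.20, FDR 0.000314), and Nrcam, a partner of contactins, had 204, 179 and 199 CPM in TRAP and 90.1 and 75 CPM in input (log2 fold change 1.23 ± 0.18, FDR 0.000314). Both genes that fell were ephrins, and Efnb3 had 61.4, 51.7 and 51.6 CPM in TRAP and 84.1 and 114 CPM in input (log2 fold change −0.85 ± 0.23, FDR 0.0123). When the pools of mice entered as a block, Efnb3 (0.111) missed the threshold (FDR in parentheses). Corrected for GC content, Efnb3 (0.112) missed the threshold. The FDR also passed 0.1 without input 12 for Efnb3 (0.173).

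For the axonal cytoskeleton and transport motors, 25 of 57 measured members rose, 7 fell and 25 did not pass the test (median log2 fold change 0.47, 20 and 4 with the block, 28 and 4 with the GC correction, 18 and 5 without input 5, 19 and 5 without input 12). Dpysl2, CRMP2, which assembles axonal microtubules, had 830, 858 and 1017 CPM in TRAP and 269 and 256 CPM in input (log2 fold change 1.78 ± 0.18, FDR 8.3e-05). Ank2, ankyrin B, had 350, 437 and 551 CPM in TRAP and 141 and 127 CPM in input (log2 fold change 1.74 ± 0.22, FDR 0.000123). Kif1b, a motor of vesicle and mitochondrial transport, had 468, 489 and 745 CPM in TRAP and 179 and 185 CPM in input (log2 fold change 1.64 ± 0.22, FDR 0.000199), whereas Kif1c, of the same kinesin family, had 26.2, 23.1 and 22.3 CPM in TRAP and 73.4 and 100 CPM in input (log2 fold change −1.86 ± 0.21, FDR 8.61e-05). Ina, the neurofilament-associated α-internexin, fell, with 60.3, 23 and 58.9 CPM in TRAP and 200 and 239 CPM in input (log2 fold change −2.21 ± 0.54, FDR 0.00708). Of synaptic adhesion molecules, 40 of 64 measured members rose, 4 fell and 20 did not pass the test (median log2 fold change 0.86, 17 and 1 with the block, 30 and 2 with the GC correction, 27 and 3 without input 5, 30 and 1 without input 12). Nrxn3, a neurexin, had 153, 195 and 192 CPM in TRAP and 44.6 and 46.8 CPM in input (log2 fold change 1.98 ± 0.24, FDR 0.000104). Cdh6, a cadherin, had 26.3, 21.5 and 28.7 CPM in TRAP and 8.61 and 8.08 CPM in input (log2 fold change 1.61 ± 0.23, FDR 0.00033). Cadm4, an adhesion molecule of myelinating glia, fell, with 127, 127 and 135 CPM in TRAP and 377 and 409 CPM in input (log2 fold change −1.60 ± 0.20, FDR 0.000134).

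**Figure D3:**
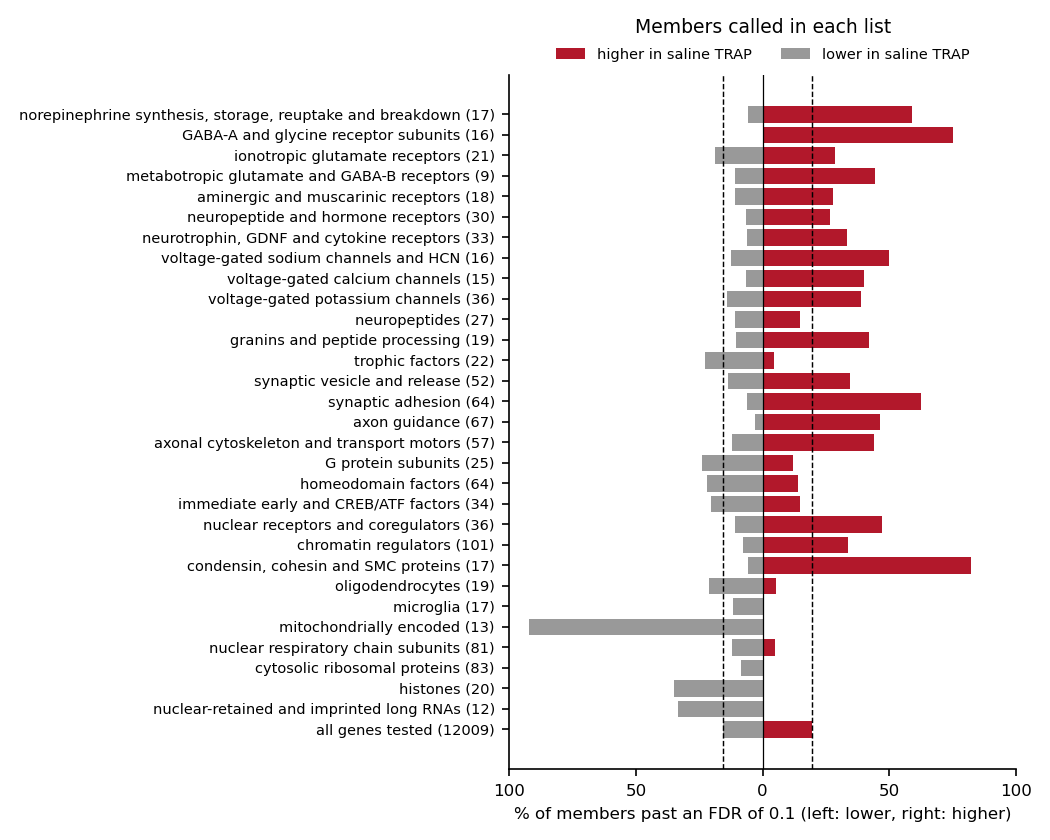
Percent of the measured members of each list that were higher (red, to the right) or lower (grey, to the left) in saline TRAP than in saline input at an FDR under 0.1, with the number of measured members in parentheses and dashed lines at the shares of all genes, 19.5% and 15.7%. Condensin and cohesin reach 82.4% higher and the mitochondrially encoded genes 92.3% lower (12 of 13, and 3 of 13 without input 5).

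Among the 15 genes with the largest rise, those outside the lists above included Exph5, exophilin 5, which tethers Rab27 vesicles, with 3.32, 22.4 and 6.87 CPM in TRAP and 1.56 and 0.945 CPM in input (log2 fold change 3.10 ± 0.70, FDR 0.00463), or a log2 fold change of 2.02 without TRAP 6. Slfn5, a Schlafen family gene, had 3.9, 7.09 and 6.54 CPM in TRAP and 1.07 and 0.709 CPM in input (log2 fold change 2.70 ± 0.61, FDR 0.0046). Dock11, an activator of Cdc42, had 11.4, 14.4 and 13.9 CPM in TRAP and 2.67 and 1.42 CPM in input (log2 fold change 2.69 ± 0.39, FDR 0.000321). Esf1, a nucleolar protein of ribosome synthesis, had 32, 34.7 and 41.3 CPM in TRAP and 5.79 and 5.15 CPM in input (log2 fold change 2.72 ± 0.34, FDR 0.000129). Hmgn5, a nucleosome-binding protein, had 10.1, 14.3 and 8.93 CPM in TRAP and 1.83 and 1.89 CPM in input (log2 fold change 2.57 ± 0.35, FDR 0.000225), and Zfp638 had 65.1, 73.6 and 114 CPM in TRAP and 14.4 and 13.8 CPM in input (log2 fold change 2.57 ± 0.34, FDR 0.000161). No TRAP library overlapped an input library in any of them, by the rule that chose them. For chaperones 19 of 67 measured members rose, 5 fell and 43 did not pass the test (median log2 fold change 0.10, 10 and 3 with the block, 16 and 8 with the GC correction, 14 and 3 without input 5, 16 and 2 without input 12), with Dnaja1, an Hsp70 cochaperone, at 728, 730 and 931 CPM in TRAP and 291 and 272 CPM in input (log2 fold change 1.5 ± 0.23, FDR 0.000391). For RNA helicases 12 of 48 measured members rose, 1 fell and 35 did not pass the test (median log2 fold change 0.27, 7 and 1 with the block, 13 and 1 with the GC correction, 7 and 0 without input 5, 5 and 0 without input 12). The Y-linked helicase gene Ddx3y had 82.1 and 94.4 CPM in TRAP 6 and 12, against 17.2 CPM in input 12, and was at 0 in the libraries without Y-linked reads.

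The list with the largest share of depleted members (92.3%) was that of the genes encoded by the mitochondrial genome, of which 0 of 13 measured members rose, 12 fell and 1 did not pass the test (median log2 fold change −2.17, 0 and 13 with the block, 0 and 13 with the GC correction, 0 and 3 without input 5, 0 and 7 without input 12). ND4L, a complex I subunit, had 19.2, 25.9 and 7.51 CPM in TRAP and 255 and 189 CPM in input (log2 fold change −3.67 ± 0.49, FDR 0.000206). ATP8 had 3.27, 3.98 and 3.13 CPM in TRAP and 75.4 and 52.2 CPM in input (log2 fold change −4.20 ± 0.84, FDR 0.00231). ND5 had 83.7, 131 and 29.6 CPM in TRAP and 599 and 400 CPM in input (log2 fold change −2.62 ± 0.61, FDR 0.00579), and COX1, the most abundant of them in input by CPM, had 5697, 6997 and 1857 CPM in TRAP and 27554 and 17474 CPM in input (log2 fold change −2.21 ± 0.60, FDR 0.0138). TRAP 12 had the lowest of the 3 TRAP values in each of these 4 genes. Together the 13 genes took 1.77%, 2.32% and 0.530% of the TRAP reads and 6.77% and 4.65% of the input reads. These transcripts are translated on mitochondrial ribosomes, which do not carry the tag. ND4L and ATP8 overlap neighbouring genes on the mitochondrial genome, so their reads may be split. Of the subunits of the respiratory chain that the nucleus encodes, 4 of 81 measured members rose, 10 fell and 67 did not pass the test (median log2 fold change −0.21, 1 and 7 with the block, 4 and 6 with the GC correction, 2 and 3 without input 5, 2 and 1 without input 12). For cytosolic ribosomal proteins 0 of 83 measured members rose, 7 fell and 76 did not pass the test (median log2 fold change −0.18, 0 and 8 with the block, 4 and 11 with the GC correction, 0 and 0 without input 5, 0 and 3 without input 12), and for mitochondrial ribosomal proteins 2 of 77 measured members rose, 11 fell and 64 did not pass the test (median log2 fold change −0.17, 0 and 2 with the block, 4 and 13 with the GC correction, 0 and 4 without input 5, 0 and 4 without input 12). The shares that fell were 12.3% for nuclear respiratory chain subunits, 8.43% for cytosolic and 14.3% for mitochondrial ribosomal proteins. Each was below the 15.7% of all genes. The shares that rose, 4.94%, 0.0% and 2.6% in the same order, were far below the 19.5% of all genes. With medians of −0.21, −0.18 and −0.17, against −0.016 over all genes, these lists lay lower as groups. Rpl10a, whose coding sequence is part of the transgene, had 156, 159 and 88.2 CPM in TRAP and 154 and 173 CPM in input (log2 fold change −0.28 ± 0.26, FDR 0.438), with TRAP 12 low, and did not pass. The FDR also passed 0.1 without input 5 for COX1 (0.106).

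Of nuclear-retained and imprinted long RNAs, 0 of 12 measured members rose, 4 fell and 8 did not pass the test (median log2 fold change −0.55, 0 and 3 with the block, 0 and 3 with the GC correction, 0 and 3 without input 5, 0 and 2 without input 12). Malat1, the nuclear speckle RNA, had 22.2, 17.4 and 23 CPM in TRAP and 146 and 74.7 CPM in input (log2 fold change −2.40 ± 0.34, FDR 0.000261). Rian, an imprinted noncoding RNA of the Dlk1 region, had 208, 294 and 238 CPM in TRAP and 818 and 653 CPM in input (log2 fold change −1.58 ± 0.25, FDR 0.000502), and Meg3 from the same region did not pass, at a log2 fold change of −0.12. Over all 211 genes annotated as long noncoding, 13 rose and 58 fell (with the block 29 fell, and without input 5 19), with a median of −0.66, against 2295 and 1761 of 11479 protein-coding genes with a median of 0.0016. For histones, 0 of 20 measured members rose, 7 fell and 13 did not pass the test (median log2 fold change −0.44, 0 and 4 with the block, 0 and 0 with the GC correction, 0 and 4 without input 5, 0 and 1 without input 12).

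Beside Gna12, Pkd1, Carm1, ATP8, ND4L and Pomc, the 15 most depleted genes by the naming rule included the following. Cabp7, a calcium-binding protein, had 3.11, 0.503 and 3.67 CPM in TRAP and 35.6 and 48.1 CPM in input (log2 fold change −4.09 ± 0.79, FDR 0.00178). Rell2, a relative of a TNF receptor partner, had 19.2, 7.77 and 10.7 CPM in TRAP and 177 and 177 CPM in input (log2 fold change −3.82 ± 0.54, FDR 0.000265). Epm2a, laforin, had 2.53, 1.46 and 2.9 CPM in TRAP and 21.1 and 18.5 CPM in input (log2 fold change −3.10 ± 1.12, FDR 0.0525). Gps1, a COP9 signalosome subunit, had 5.53, 1.14 and 3.98 CPM in TRAP and 34.1 and 31.3 CPM in input (log2 fold change −3.20 ± 0.999, FDR 0.0273). Ado, cysteamine dioxygenase, had 6.32, 2.97 and 4.68 CPM in TRAP and 41.2 and 37.8 CPM in input (log2 fold change −3.08 ± 0.66, FDR 0.00327), and Kifc2, a kinesin, had 14.5, 9.1 and 17.3 CPM in TRAP and 92.1 and 104 CPM in input (log2 fold change −2.84 ± 0.28, FDR 6.28e-05). AF357359, LOC102640133 and Gm21685 are noncoding or predicted entries whose reads can belong to other genes, and their log2 fold changes were −3.32, −2.74 and −2.70. The call was lost for Epm2a in 5 of the 13 fits that leave out a library (FDR 0.104 to 0.156 there).

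Markers of other cells were measured beside the noradrenergic genes. For serotonergic neurons, which lie close by in the raphe, 1 of 7 measured members rose, 1 fell and 5 did not pass the test (median log2 fold change 0.43), and Tph2, the serotonin-synthesizing enzyme, was the member that rose, with 93.6, 83.9 and 122 CPM in TRAP and 49.4 and 47 CPM in input (log2 fold change 1.05 ± 0.30, FDR 0.0171), while the serotonin transporter gene Slc6a4 did not pass, at a log2 fold change of 0.50. For dopaminergic neurons 1 of 4 measured members rose, 0 fell and 3 did not pass the test (median log2 fold change 0.58), and Slc6a3, the dopamine transporter, had 63.9, 29.8 and 56.1 CPM in TRAP and 30.8 and 28.3 CPM in input (log2 fold change 0.76 ± 0.32, FDR 0.089), and TRAP 6 lay within the input range. For cholinergic and motor neurons 1 of 5 measured members rose, 0 fell and 4 did not pass the test (median log2 fold change −0.25). The summed CPM of the serotonergic list was 212, 196 and 248 in TRAP and 148 and 158 in input. The part of these cells in the enrichment of Th, Ddc, Slc18a2 and Slc10a4 was not tested. In the fit with the replicate block Slc6a3 (0.207) no longer passed, with the FDR in parentheses. Among the fits that leave out a library, the FDR passed 0.1 without input 12 for Tph2 (0.12). The call was lost for Slc6a3 in 8 of the 13 fits that leave out a library (FDR 0.101 to 0.307 there).

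Cerebellar genes singled out a library. Although the cerebellum had been discarded, granule and Purkinje cell markers were far higher in TRAP 6 than in the other saline libraries. Gabra6 had 3.27, 54.7 and 1.58 CPM in TRAP and 3.09 and 2.27 CPM in input, Neurod1, a granule cell factor, had 4.69, 68.4 and 6.6 CPM in TRAP and 6.17 and 4.54 CPM in input, Ppp1r17, a Purkinje cell gene, had 4.9, 50 and 6.44 CPM in TRAP and 5.03 and 4.68 CPM in input, and Car8, another, had 28.7, 216 and 21.7 CPM in TRAP and 28.7 and 27.9 CPM in input. The list as a whole summed to 1976, 3250 and 1678 CPM in TRAP and 1817 and 2195 CPM in input, and 4 of 20 measured members rose, 0 fell and 16 did not pass the test (median log2 fold change 0.78, 1 and 1 with the block, 2 and 1 with the GC correction, 2 and 0 without input 5, 1 and 0 without input 12). Itpr1 and Calb1, which many neurons use, were the members above input in all 3 TRAP libraries among the 4 that passed, with 81.3, 286 and 116 CPM in TRAP and 44.3 and 47.4 CPM in input (log2 fold change 1.81 ± 0.48, FDR 0.0112) and 206, 383 and 208 CPM in TRAP and 121 and 112 CPM in input (log2 fold change 1.19 ± 0.32, FDR 0.0131). Without TRAP 6 the log2 fold change of Itpr1 was 1.11, that of Gabra6 −0.16 (FDR 0.907) and that of Ppp1r17 0.23 (FDR 0.828). Over all genes 3602 passed without TRAP 6, of which 2079 rose and 1523 fell. With the block, the FDR rose past the threshold for Gabra6 (0.681), Ppp1r17 (0.672) and Calb1 (0.237). The GC correction took Gabra6 (0.159), Ppp1r17 (0.148) and Calb1 (0.115) past the FDR threshold. The FDR also passed 0.1 without input 12 for Calb1 (0.109). The call was lost for Gabra6 in 7 of the 13 fits that leave out a library (FDR 0.101 to 0.907 there) and Ppp1r17 in 6 of the 13 fits that leave out a library (FDR 0.103 to 0.828 there).

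For oligodendrocytes, the myelin-forming cells, 1 of 19 measured members rose, 4 fell and 14 did not pass the test (median log2 fold change −0.24, 1 and 1 with the block, 0 and 4 with the GC correction, 1 and 2 without input 5, 1 and 4 without input 12), with Mbp, myelin basic protein, at 2095, 1868 and 1786 CPM in TRAP and 3741 and 3645 CPM in input (log2 fold change −0.95 ± 0.19, FDR 0.00223), and Ermn, ermin, at 284, 255 and 273 CPM in TRAP and 171 and 146 CPM in input (log2 fold change 0.77 ± 0.16, FDR 0.00261). For microglia 0 of 17 measured members rose, 2 fell and 15 did not pass the test (median log2 fold change −0.035), and the defining markers Cx3cr1 and P2ry12 had log2 fold changes of −0.035 and 0.19 and did not pass. For astrocytes 5 of 17 measured members rose, 2 fell and 10 did not pass the test (median log2 fold change 0.18, 3 and 0 with the block, 4 and 2 with the GC correction, 5 and 2 without input 5, 2 and 0 without input 12). The astrocyte markers that rose were Slc1a2, Sox9, Aqp4, Slc4a4 and Gja1, 29.4% of the list against 19.5% of all genes. The share that fell was 11.8%, against 15.7%. Slc1a2, the glial glutamate transporter, had 621, 584 and 747 CPM in TRAP and 193 and 148 CPM in input (log2 fold change 1.93 ± 0.26, FDR 0.000199), while Gfap fell, with 243, 219 and 251 CPM in TRAP and 327 and 367 CPM in input (log2 fold change −0.55 ± 0.17, FDR 0.0251), and Aldh1l1, a specific astrocyte marker, did not pass, at a log2 fold change of 0.21. The astrocyte markers summed to 7871, 7629 and 8570 CPM in TRAP and 7228 and 7254 CPM in input. Markers of the choroid plexus varied between libraries of the same kind, and Ttr, transthyretin, had 943, 834 and 437 CPM in TRAP and 74.5 and 1028 CPM in input. For precursors of oligodendrocytes 2 of 8 measured members rose, 0 fell and 6 did not pass the test (median log2 fold change 0.37), for vessels 3 of 12 measured members rose, 1 fell and 8 did not pass the test (median log2 fold change 0.40, 0 and 1 with the block, 1 and 1 with the GC correction, 1 and 1 without input 5, 0 and 1 without input 12), and for ependyma and choroid plexus 1 of 10 measured members rose, 1 fell and 8 did not pass the test (median log2 fold change 0.49). The calls of Mbp (0.178), Ermn (0.236) and Gfap (0.502) were lost with the replicate block (FDR in parentheses). Corrected for GC content, Ermn (0.237) and Gfap (0.308) missed the threshold. Leaving out a library lost the call without input 12 for Gfap (0.18) (FDR in parentheses).

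**Figure D4:**
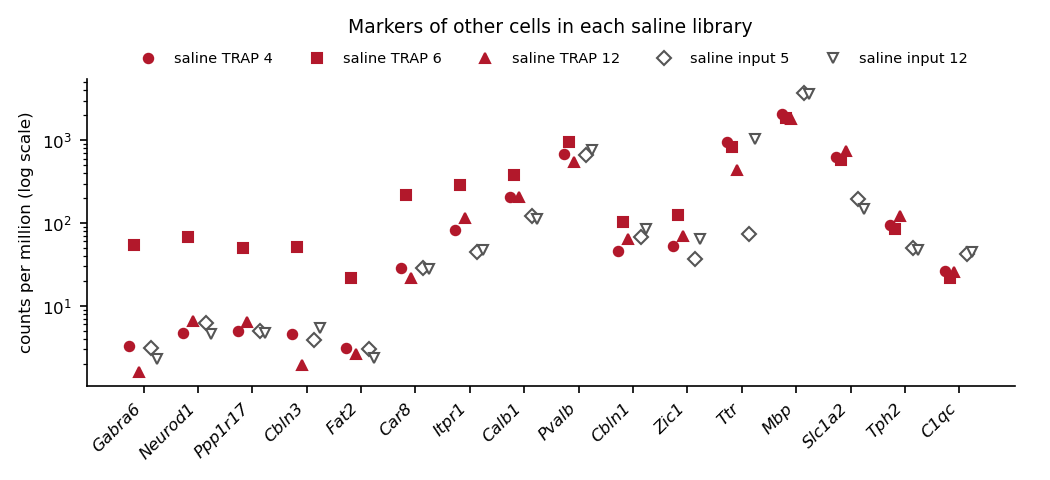
CPM on a log scale in each saline library for markers of cerebellar neurons, choroid plexus, oligodendrocytes, astrocytes, serotonergic neurons and microglia; filled red symbols are the TRAP libraries and open grey symbols the input libraries, with TRAP to the left for each gene. TRAP 6 stands alone for Gabra6, at 54.7 CPM against 3.27 and 1.58 CPM in TRAP 4 and 12, and input 5 stands alone for Ttr, at 74.5 CPM against 1028 CPM in input 12.

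Enrichment followed the base composition of the transcript. Across the 11832 genes with an annotated transcript (98.53%), the log2 fold change and the GC content of the longest transcript had a Spearman correlation of −0.42. In the decile of genes with the lowest GC (31.0% to 41.4%), the median log2 fold change was 0.51, 44.5% of genes rose and 4.14% fell. In the decile with the highest GC (58.0% to 72.8%) the median was −0.49, 3.21% rose and 34.5% fell. The last base of a codon can usually be G or C without a change of the amino acid, and by quintiles of GC at that position the median log2 fold change ran from 0.48 to −0.30. To show what this contrast looks like, 30 codons from the middle of the coding sequence are given for the genes with the lowest GC at that last base among the 15 largest rises (Zfp638, Hmgn5 and Smc4), for those with the highest among the 15 largest falls (Ado, Gna12 and Cabp7), both limited to genes whose call held without either input library, and for the marker Slc6a2, with last bases of codons that are G or C in capitals.
Zfp638: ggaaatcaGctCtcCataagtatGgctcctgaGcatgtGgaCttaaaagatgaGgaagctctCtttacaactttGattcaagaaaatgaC
Hmgn5: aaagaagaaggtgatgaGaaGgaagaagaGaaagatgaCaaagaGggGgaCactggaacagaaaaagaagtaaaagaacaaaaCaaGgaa
Smc4: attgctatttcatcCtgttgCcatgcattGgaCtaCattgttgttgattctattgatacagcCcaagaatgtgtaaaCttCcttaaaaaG
Ado: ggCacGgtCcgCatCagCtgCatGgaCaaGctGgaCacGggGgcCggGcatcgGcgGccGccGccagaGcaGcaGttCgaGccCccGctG
Gna12: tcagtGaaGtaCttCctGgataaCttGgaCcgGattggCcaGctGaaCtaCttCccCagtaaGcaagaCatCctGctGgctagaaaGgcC
Cabp7: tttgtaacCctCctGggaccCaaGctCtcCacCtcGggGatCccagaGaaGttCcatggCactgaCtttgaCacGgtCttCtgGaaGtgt
Slc6a2: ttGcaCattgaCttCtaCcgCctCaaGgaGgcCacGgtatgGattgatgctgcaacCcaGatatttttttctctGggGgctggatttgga
The sequences are the sense strand of GENCODE vM21 transcripts on GRCm38, 5′ to 3′, all of them coding exon, and lie for Zfp638 in chr6:83965604-83966482 on the plus strand (codons 966 to 995, 2 exons), Hmgn5 in chrX:109005676-109005765 on the minus strand (codons 189 to 218, 1 exon), Smc4 in chr3:69025857-69025946 on the plus strand (codons 629 to 658, 1 exon), Ado in chr10:67548345-67548434 on the minus strand (codons 114 to 143, 1 exon), Gna12 in chr5:140761074-140762634 on the minus strand (codons 176 to 205, 2 exons), Cabp7 in chr11:4739275-4739640 on the minus strand (codons 94 to 123, 2 exons) and Slc6a2 in chr8:92989118-92990179 on the plus strand (codons 295 to 324, 2 exons). In these 30 codons the last base was G or C in 11, 9 and 9 for Zfp638, Hmgn5 and Smc4, and in 28, 23 and 22 for Ado, Gna12 and Cabp7. Over the whole coding sequence it was 31.9%, 34.2% and 35.0% for the enriched genes and 87.2%, 86.3% and 83.3% for the depleted genes. The contrast between the enriched and depleted examples was set by the choice of genes. Slc6a2 went against the trend, with 68.4%. By GC of the longest transcript Ado did so too, at 48.3% against a median of 49.7% over all genes.

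Correlations of similar size were seen when the parts of the transcript were read separately, with −0.413 for GC of the coding sequence, −0.396 for the last bases of codons and −0.395 for the 3′ UTR, against −0.0916 for the 5′ UTR. Longer transcripts rose, with a Spearman correlation of 0.463 between the log2 fold change and the length of the longest transcript. The shortest quintile had a median log2 fold change of −0.31, with 3.72% of genes higher and 24.4% lower, and the longest quintile had a median of 0.61, with 47.4% higher and 4.39% lower. GC and length were themselves related, at −0.281, and within quintiles of length the GC correlation lay between −0.394 and −0.28. Of the parts, the length of the coding sequence had the closest relation to the log2 fold change (0.422), followed by the 3′ UTR (0.269) and the 5′ UTR (0.0967). These are correlations across genes of the same 5 libraries, and genes are not independent replicates.

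The trend was present in each library and differed in size between them. Against the mean of the input libraries the GC correlation was −0.47 for TRAP 4, −0.395 for TRAP 6 and −0.338 for TRAP 12, and the length correlation was 0.351, 0.405 and 0.538. The input libraries also differed from each other by GC, with a correlation of −0.447 for input 5 over input 12 and median log2 differences of 0.21 in the lowest decile of GC and −0.26 in the highest, while the TRAP libraries differed little by GC, with correlations between −0.0844 and −0.0159 over the 3 pairs. Set against input 5 alone, the GC correlations of the 3 TRAP libraries were −0.366, −0.289 and −0.243, and against input 12 alone −0.539, −0.476 and −0.42. By length the input libraries were alike (−0.0633) and the TRAP libraries were not (−0.466 for TRAP 4 over TRAP 12). Whether the trend belongs to the cells or to the making of the libraries cannot be told apart here. After each library was corrected for a smooth curve of log2 CPM on transcript GC, the GC correlation was −0.00126 and that with length 0.374, and 2009 genes (16.7%) rose and 1664 (13.9%) fell, including 1639 of the 2337 and 1220 of the 1880 called without the correction. No gene was called in opposite directions, but 28 genes called without the correction had a log2 fold change of the other sign after it. Slc6a2, Dbh, Gal, Slc18a2 and Phox2a, listed above at 4.75, 3.71, 2.88, 2.42 and 2.85, had corrected log2 fold changes of 4.77, 4.01, 3.16, 2.30 and 3.53.

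**Figure D5:**
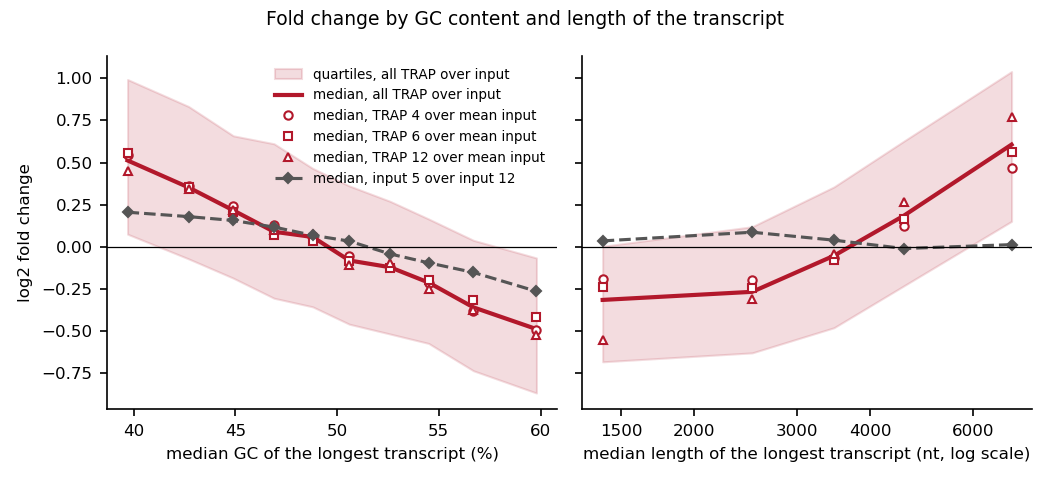
Log2 fold change by deciles of transcript GC (left) and quintiles of transcript length (right, log axis); the red line and band are the median and quartiles of all TRAP over input, open red symbols are each TRAP library over the mean input, and grey diamonds are input 5 over input 12. The red line runs from 0.51 at the lowest GC to −0.49 at the highest and from −0.31 for the shortest transcripts to 0.61 for the longest, and the grey line falls with GC and is nearly flat with length.

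The most abundant transcripts of the TRAP libraries, per kilobase of the annotated mRNA, were not the most enriched. Of the 20 highest, 4 were mitochondrially encoded (COX3, COX1, ATP6 and COX2) in spite of their depletion, and 3 were short entries (Mir682, Gm12338 and Atp6v0c-ps2) whose reads can come from other copies. The others included Aldoa, a glycolytic enzyme, at 1613 CPM per kilobase in TRAP and 1800 in input, Ubb, polyubiquitin, at 2854 and 2676, Calm2, calmodulin, at 2402 and 1907, Snap25, a synaptic SNARE protein, at 2046 and 1764, and Stmn3, a neuronal microtubule regulator, at 2085 and 1507, in the same order and scale. None of these 5 passed the test. Fth1, ferritin heavy chain, fell, with 3126, 3430 and 1314 CPM in TRAP and 9537 and 7858 CPM in input (log2 fold change −1.73 ± 0.51, FDR 0.0199), and so did Eef1a1, an elongation factor, with 3305, 2934 and 2305 CPM in TRAP and 5453 and 3992 CPM in input (log2 fold change −0.73 ± 0.24, FDR 0.0338). When the pools of mice entered as a block, Eef1a1 (0.328) missed the threshold (FDR in parentheses). Among the fits that leave out a library, the FDR passed 0.1 without input 5 for Fth1 (0.107) and Eef1a1 (0.282), and without TRAP 12 for Eef1a1 (0.124).

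In mice given DSP-4 the same comparison was made with 6 TRAP and 2 input libraries, and the enrichment in saline mice was tested against it. The difference between the log2 fold changes passed an FDR of 0.1 in 0 of 12009 genes (0.0%) by edgeR, and in 0 genes by DESeq2 and by limma-trend, while 321 genes (2.67%) had an unadjusted p under 0.05. The genes with the smallest p all had a smaller enrichment in saline mice. They were A830018L16Rik (log2 difference, saline minus DSP-4, −1.09), Hs6st2 (−0.97), Htatsf1 (−1.02), Exoc5 (−0.92), Wdr43 (−0.87), Gpbp1 (−0.83), Ermn (−0.83), Tmem30a (−0.78), Elavl2 (−0.77) and Nr1d2 (−0.67), all at an FDR of 1. For Slc6a2 the difference was 0.94 ± 0.507, for Dbh 1.12 ± 0.34, and for Gal 0.90 ± 0.303. The GC correlation was larger in size in DSP-4 mice, with a correlation of −0.577, against −0.42 in saline mice, and the difference between the enrichments correlated with GC at 0.552, given as a description of these libraries.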

How the data were processed

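RNA of pooled mouse hindbrains was sequenced as TRAP and input libraries. Per the labels and the study's methods, the authors used STAR for alignment to mm10 and featureCounts to obtain gene counts, and the deposited table of raw counts leaves out genes of low count. Its name calls the values normalized, but all are whole numbers that sum to 19156476 to 29199550 in the saline libraries. Tool versions and strand use were not stated in any source used here. Antisense and overlapping genes can therefore share reads. In 21 rows a number stands in place of a symbol.

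The counts were analysed with edgeR 4.0.16 in R 4.3.3 (TMM factors, quasi-likelihood test, Benjamini-Hochberg FDR under 0.1) over all 13 libraries in 4 groups, with CPM on TMM-scaled totals. TRAP and input with the same number were taken to come from 1 homogenate, by their labels and the study's description of the procedure. After removal of the group means these pairs correlated at 0.295 (saline 12), 0.181 and 0.266 (DSP-4). Saline TRAP 4 and TRAP 6 correlated with saline input 12 at −0.382 and 0.0784. With only 2 input libraries in a group, such values cannot show the pairing. The fit with the replicate block is given where it changed a call. Pair 12 is the only saline pair, so the FDRs of the block fit measure no spread between saline pools. Passing or missing the threshold there is not replicated evidence. P-values without the block rest on a spread between libraries, shared over all 4 groups. That fit takes the libraries as independent, although some TRAP and input libraries share a pool. Its spread holds differences between pools and differences in the making of libraries together. GC and length came from GENCODE vM21 (GRCm38) for 11832 of 12009 genes, matched by symbol, with older symbols from RefSeq for 259. Counts were simulated for this comparison with 200 of 12009 genes changed, without pairing of pools and without a GC trend. There 3% of 1.5-fold, 50% of 2-fold and 91% of 3-fold changes were recovered, with 11 false calls of 107. In the data 35.1% of genes were called, so these rates may not hold for them.

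The members and gene lists were chosen with earlier results of these data known. Named genes were the 5 markers, the 15 largest changes in each direction with an FDR under 0.1, at least 10 counts in each saline library and no overlap between TRAP and input, up to 6 members of each list with the smallest p in each direction with members the list turns on by level, the 20 highest per kilobase, and the 10 smallest p for the difference from DSP-4 mice. Alternatives were other size factors, DESeq2 1.42.0, limma 3.58.1, a filter of 1 CPM, the saline libraries alone, replicate blocks, a GC correction (a spline with 6 degrees of freedom), a null fold of 1.5, and each library left out in turn. Some genes that this rule names are not reported here.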

Additional observations from a re-analysis of the deposited data

How the results depend on the processing

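With the replicate block, which pairs TRAP and input of a pool, 817 genes were higher and 605 lower, against 2337 and 1880 without it, and with the block and the GC correction together 71 and 50 remained. In that fit the saline contrast rests on pair 12, and the spread comes from the DSP-4 pairs. Against a null fold of 1.5 the counts were 825 and 470. Leaving out 1 library gave 1215 to 2733 higher and 885 to 2452 lower genes, lowest without input 12 and highest without DSP-4 TRAP 2, and fewer samples are part of those fits. The other size factors, DESeq2, limma, the 1 CPM filter, the saline libraries alone and the random block gave 2160 to 2943 higher and 1806 to 2732 lower, including the fit without DSP-4 TRAP 2 and 3. The difference from DSP-4 mice had 1 call with the replicate block, Prl (3.44 ± 0.754, FDR 0.0618), and 0 otherwise. The GC correlation of −0.42 ranged from −0.499 without input 5 to −0.307 without input 12, and that with length, 0.463, from 0.395 to 0.493 over fits that leave out a library, and was 0.51 with the block. Gabra6 turned negative with the block (−0.516), with block and GC correction (−1.03) and without TRAP 6, ranging from −0.164 to 3.43 over fits that leave out a library, Prl was at 2.44 and Ttr at −1.23 with the block, and Slc32a1 at 0.576 with the GC correction, and the cause was not tested. A set of 160 named genes that passed was followed across the fits. Of these, 116 kept their call with the block, 150 with the GC correction and 30 with both. With both, 129 lost it and 1, Gabra6, changed sign. Over all genes called in the fit without block, 78 had the other sign with block and GC correction together. Epm2a lost its call with DESeq2, and Epm2a, Gabra6, Pomc, Ppp1r17 and Slc6a3 lost theirs with limma-trend. At this depth the lowest mean count of a gene was 78.4, and the chi-square per gene between saline replicates was 37.9 to 110, where counting error alone gives about 1.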

Other observations

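Some gene groups fell outside the cell biology described above. Of subunits of the proteasome, which degrades ubiquitin-tagged proteins, 5 of 41 measured members rose, 3 fell and 33 did not pass the test (median log2 fold change −0.075, 1 and 1 with the block, 3 and 5 with the GC correction, 4 and 1 without input 5, 2 and 3 without input 12). Psme4, the activator PA200, had 34.8, 40.4 and 29 CPM in TRAP and 21.1 and 16.1 CPM in input (log2 fold change 0.90 ± 0.26, FDR 0.0188). Psma4, a subunit of the catalytic core, had 199, 209 and 204 CPM in TRAP and 119 and 112 CPM in input (log2 fold change 0.82 ± 0.19, FDR 0.00468), and Psme3, the activator PA28γ, fell, with 58.9, 61 and 60.1 CPM in TRAP and 116 and 152 CPM in input (log2 fold change −1.16 ± 0.21, FDR 0.00131). In the fit with the replicate block Psme4 (0.323) and Psma4 (0.25) no longer passed, with the FDR in parentheses. Leaving out a library lost the call without input 12 for Psme4 (0.183) (FDR in parentheses).

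Of small nucleolar RNAs and their host genes, 0 of 25 measured members rose, 3 fell and 22 did not pass the test (median log2 fold change −0.23, 1 and 4 with the block, 1 and 5 with the GC correction, 0 and 2 without input 5, 0 and 1 without input 12), and of entries annotated as pseudogenes 9 of 134 measured members rose, 30 fell and 95 did not pass the test (median log2 fold change −0.33, 1 and 20 with the block, 11 and 28 with the GC correction, 6 and 12 without input 5, 1 and 13 without input 12). Many of these entries share sequence with other genes, so their reads are uncertain. By role, 58 of 116 measured members rose, 11 fell and 47 did not pass the test (median log2 fold change 0.64, 28 and 3 with the block, 48 and 6 with the GC correction, 40 and 9 without input 5, 40 and 4 without input 12) over the synaptic lists, 56 of 124 measured members rose, 9 fell and 59 did not pass the test (median log2 fold change 0.52, 39 and 4 with the block, 55 and 5 with the GC correction, 38 and 7 without input 5, 40 and 5 without input 12) over the axonal lists, and 13 of 68 measured members rose, 10 fell and 45 did not pass the test (median log2 fold change 0.06, 4 and 7 with the block, 14 and 8 with the GC correction, 9 and 7 without input 5, 8 and 5 without input 12) over the lists of secreted ligands.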
